A study of Mus musculus with 12 samples.

Results

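*Ptch1*, *Smo*, *Sufu*, *Gli2*, *Gli3*, *Hhip* and *Sfrp1* were followed across Norrin-deficient medulloblastoma (MB), *Ptch+/-* MB and normal granule neuron progenitors. These 7 genes were taken by symbol as core components and targets of the hedgehog pathway, out of 19057 genes with a probe of their own on the array, and 17 of the 45281 probes carry their symbols. They were chosen with earlier results of these data known, and they are not the whole pathway. Each gene was read through its brightest probe, the one with the highest mean signal over all arrays. RNA of 12 samples had been hybridised to Illumina MouseWG-6 v2.0 BeadChips, with 4 samples in each of 3 groups.

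The *NdpKO;Ptch+/-* MBs came from males that lacked *Ndp* (*Ndp-/y*), the X-linked gene for Norrin, through a lacZ knockout allele, and that carried 1 functional copy of *Ptch1*. Their strain is labelled as mixed. The *Ptch+/-* MBs carried the same *Ptch1* mutation with *Ndp* intact and are labelled C57Bl/6. The reference was wild-type granule neuron progenitors (WT GNPs), also C57Bl/6, taken from the cerebellum at postnatal day 6 and purified on a Percoll gradient and by pre-plating. The ages of the tumor-bearing mice are not in the labels. *Ndp* was removed from the whole animal, so all cell types of these tumors lacked it. By these labels strain went together with *Ndp* genotype, and their parts in a difference between the tumors cannot be told apart. The methods state, however, that compound mutants were set against controls bred in one cohort so that backgrounds matched, and the sources used here do not settle how far the strains of these samples differed. The methods limit *NdpKO;Ptch+/-* mice to males, while other controls include both sexes, so sex may also go with *Ndp* genotype. The paper reports a shorter mean tumor latency in compound mutants, so tumor age may do so as well. Their parts cannot be told apart here either. The sources used here do not say whether each tumor came from a different mouse, so p-values measure the spread among these samples only.

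Hedgehog ligands bind PTCH1 (the receptor), which otherwise holds the membrane protein SMO inactive. Active SMO at the primary cilium frees GLI transcription factors from SUFU, a cytoplasmic inhibitor, and the GLI factors switch target genes on or, as the cleaved repressor that GLI3 readily forms, off. *Ptch1* and *Hhip* are themselves targets of the pathway and dampen it, *Ptch1* as receptor and *Hhip* as a membrane protein that binds the ligand. *Sfrp1* encodes a secreted antagonist of Wnt ligands and serves as an expression marker of the Shh subgroup of MB. In the young cerebellum, Shh from Purkinje cells drives the division of GNPs, and loss of *Ptch1* function leaves the pathway on and gives rise to this tumor.

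*Smo* and *Gli3* differed in opposite directions between the tumors, and their promoters are shown to place both genes. On GRCm38.p6 the RefSeq windows cover chr6:29735247-29735496 for *Smo* and chr13:15463473-15463722 for *Gli3*, both on the plus strand and ending just before the annotated start. The sequences run 5′ to 3′, with CG dinucleotides in capitals.
Smo: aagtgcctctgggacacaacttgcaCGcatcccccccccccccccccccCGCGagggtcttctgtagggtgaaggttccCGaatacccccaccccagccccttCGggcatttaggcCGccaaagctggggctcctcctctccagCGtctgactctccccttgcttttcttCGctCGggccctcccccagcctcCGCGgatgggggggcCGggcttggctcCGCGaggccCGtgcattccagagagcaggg
Gli3: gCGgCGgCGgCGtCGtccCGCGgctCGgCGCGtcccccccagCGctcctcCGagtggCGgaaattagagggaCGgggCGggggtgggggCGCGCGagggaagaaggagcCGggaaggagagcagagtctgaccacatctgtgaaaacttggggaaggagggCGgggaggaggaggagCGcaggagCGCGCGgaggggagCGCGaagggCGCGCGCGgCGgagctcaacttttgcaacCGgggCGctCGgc
The *Gli3* stretch is 72.8% G and C with 34 CG dinucleotides, and the *Smo* stretch is 68.4% with 15. The median over all windows is 6. The GLI consensus motif GACCACCCA, searched on both strands over 250 bases before to 50 after the start, was found in the windows of 0 of the 6 members that had one, and in 83 of 32851 windows of that length (0.253%). That count says only that these letters are not in these windows.

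Signals are log2 values that the authors normalized between arrays, so a difference of 1 is a doubling of signal. Values near 4.1 are the floor of this scale, and a log2 signal of 4.5 was used as the background limit. The probe for *Ndp* stayed under that limit on all 12 arrays (4.12 to 4.16 in *NdpKO;Ptch+/-* MBs, 4.14 to 4.21 in *Ptch+/-* MBs and 4.14 to 4.21 in WT GNPs) and gives no check of the *Ndp* genotype. Pearson's r between arrays of a group, across probes, was 0.989 to 0.993, 0.984 to 0.991 and 0.993 to 0.996 in the same order. Of the granule lineage markers, *Atoh1*, *Cbln3* and *Gabra6* lay under the limit on every array, while *Zic1*, *Meis1* and *Barhl1* lay well above it in all groups. The samples are whole tumors or cell preparations, so fewer cells of a type and less RNA per cell cannot be told apart.

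The tumors without *Ndp* had less *Smo* and much more *Gli3* than *Ptch+/-* MBs when all 12 arrays were fitted. Neither difference passed an adjusted p under 0.05 when limma was given the 2 tumor groups alone, and that of *Gli3* rests on 1 probe. *Smo*, *Sufu*, *Gli2* and *Sfrp1* were all higher in *Ptch+/-* MBs than in WT GNPs, and *Gli3* was lower. *Sufu* and *Sfrp1* were higher than in WT GNPs in *NdpKO;Ptch+/-* MBs as well. The brightest probe alone carries the call of *Gli2* in *Ptch+/-* MBs and that of *Sufu* in *NdpKO;Ptch+/-* MBs. A second *Gli2* probe gave -0.12 for *Ptch+/-* MBs against WT GNPs (limma adjusted p = 0.808). With limma and an adjusted p under 0.05 over all probes, 2 of the 7 members differed between the tumor genotypes (1 higher, 1 lower in *NdpKO;Ptch+/-* MBs), against 4.2% of the 8913 genes with a mean at or above the limit (1.6% higher, 2.59% lower). Between *Ptch+/-* MBs and WT GNPs 5 members differed (4 higher, 1 lower), against 38.3% of those genes (19.7% higher, 18.5% lower). Between *NdpKO;Ptch+/-* MBs and WT GNPs it was 2 members, both higher, against 28.8% (15.5% higher, 13.3% lower). The median log2 difference of the 7 members was -0.67, 0.85 and 0.18 in these comparisons, beside 0.02, -0.01 and 0.04 over the genes above the limit. The comparisons share samples with each other, so their values are set side by side only. The 7 members were chosen with earlier results of these data known. Their counts and medians beside the values over all genes are therefore no test of the pathway.

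**Figure D1:**
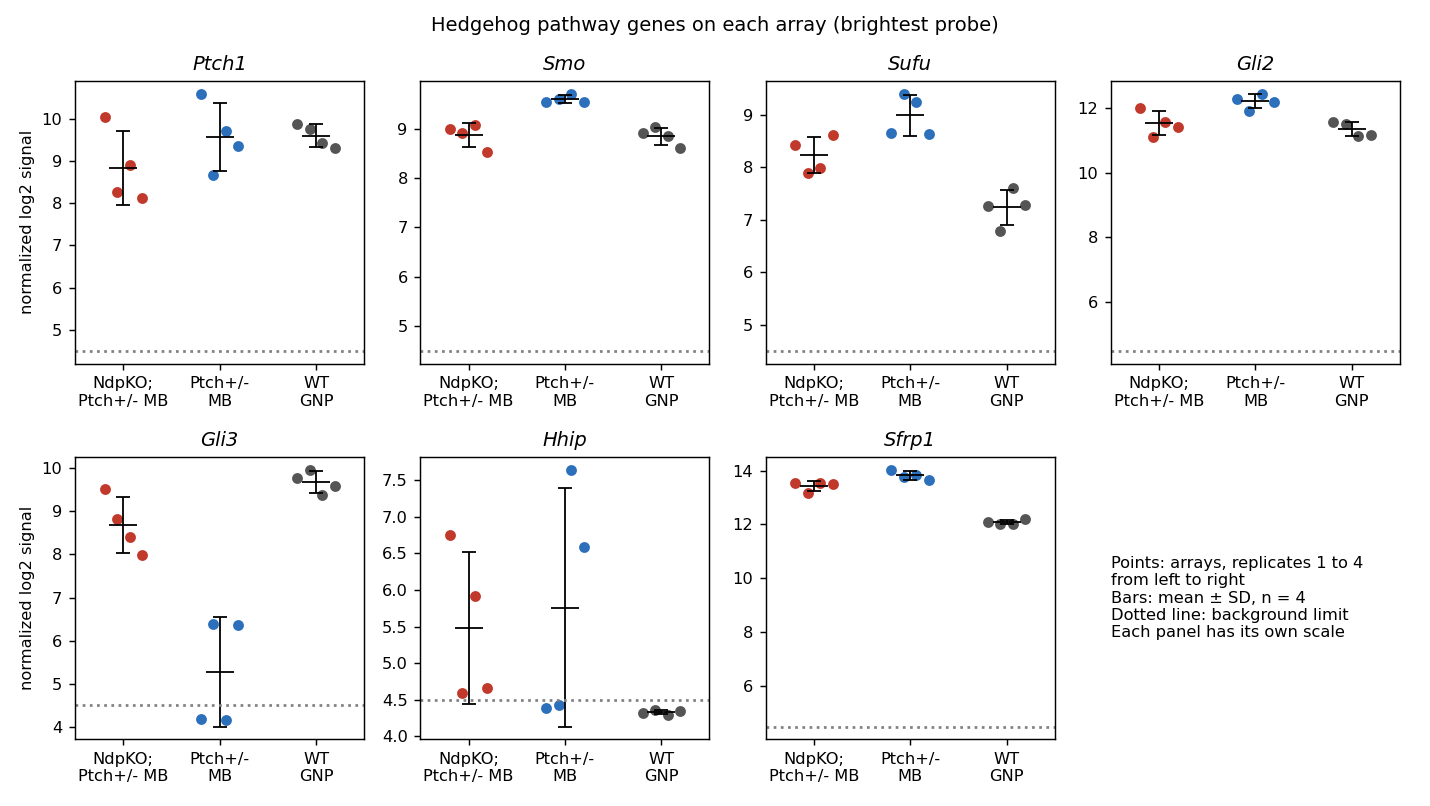
Normalized log2 signal of the 7 genes on each of the 12 arrays, 1 panel a gene with its own scale. Points are replicates 1 to 4 from left to right, bars the mean ± SD (n = 4), and the dotted line the background limit of 4.5. *Gli3* in *Ptch+/-* MBs lies below both other groups, with replicates 1 and 3 under the limit, and *Sfrp1* and *Sufu* in WT GNPs lie below both tumor groups.

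*Ptch1*, the receptor that restrains the pathway and the gene mutated in both tumor genotypes, is at chromosome 13, 63508328 to 63573460. Its log2 signals were 10.06, 8.27, 8.90 and 8.12 in *NdpKO;Ptch+/-* MBs, 10.59, 8.66, 9.70 and 9.35 in *Ptch+/-* MBs, and 9.89, 9.76, 9.44 and 9.32 in WT GNPs. The groups overlapped throughout, and each tumor group held samples both above and below the WT GNPs. The means were 8.84 ± 0.88, 9.58 ± 0.80 and 9.60 ± 0.27 (SD, n = 4 each), so tumors of a genotype differed among themselves more than the GNP samples did. The genotypes differed by -0.74 on the log2 scale (95% interval -1.82 to 0.34, limma adjusted p = 0.599). Against WT GNPs the difference was -0.03 for *Ptch+/-* MBs (-1.11 to 1.06, limma adjusted p = 0.984) and -0.77 for *NdpKO;Ptch+/-* MBs (-1.85 to 0.32, limma adjusted p = 0.379). Intervals this wide hold both a doubling and no difference for *Ptch+/-* MBs against WT GNPs. Whether the probe lies in the deleted part of *Ptch1* is not given in the sources used here, so its signal is no check of the mutation. A second probe stayed near the floor, with group means of 4.19, 4.31 and 4.38.

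*Smo*, the transducer that PTCH1 holds in check (chromosome 6, 29735497 to 29761366), was highest in *Ptch+/-* MBs. Its log2 signals were 8.99, 8.92, 9.08 and 8.52 in *NdpKO;Ptch+/-* MBs, 9.54, 9.61, 9.70 and 9.54 in *Ptch+/-* MBs, and 8.90, 9.03, 8.84 and 8.60 in WT GNPs. All *Ptch+/-* MBs lay above every other sample, and the *NdpKO;Ptch+/-* MBs overlapped with WT GNPs. *Smo* was lower by -0.72 (SE 0.12, interval -1.0001 to -0.44, limma adjusted p = 0.0268) in *NdpKO;Ptch+/-* than in *Ptch+/-* MBs, a 1.65-fold difference. It was higher by 0.75 (SE 0.12, limma adjusted p = 0.00256) in *Ptch+/-* MBs than in WT GNPs. The *NdpKO;Ptch+/-* MBs differed from WT GNPs by 0.03, with an interval of -0.25 to 0.31 (limma adjusted p = 0.914).

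The next dimmer *Smo* probes gave the same order of the tumors, as the plot of all probes shows, without passing between the genotypes. Probe 2 gave -0.76 (limma adjusted p = 0.108) and probe 3 gave -1.44 (limma adjusted p = 0.0674). Between *Ptch+/-* MBs and WT GNPs probe 3 passed at 1.202 (limma adjusted p = 0.0288) and probe 2 did not at 0.54 (limma adjusted p = 0.0912). Probe 4 was under the limit on every array. The call between the tumor genotypes was not made from those 2 groups alone (adjusted p = 0.113), nor without replicate 2 of *NdpKO;Ptch+/-* MB (0.0633), replicate 1, 2 or 3 of *Ptch+/-* MB (0.0522, 0.0619 and 0.0682) or replicate 1 of WT GNP (0.0501), all with limma.

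*Sufu* encodes the inhibitor that binds GLI proteins (chromosome 19, 46396896 to 46488804). Its log2 signals were 8.42, 7.89, 7.98 and 8.62 in *NdpKO;Ptch+/-* MBs, 8.66, 9.40, 9.25 and 8.64 in *Ptch+/-* MBs, and 7.27, 6.79, 7.60 and 7.28 in WT GNPs. The 3 groups did not overlap, but the closest samples of the tumor genotypes lay only 0.02 apart. *Sufu* was 3.37-fold higher in *Ptch+/-* MBs than in WT GNPs (1.75, SE 0.25, limma adjusted p = 0.00104). In *NdpKO;Ptch+/-* MBs it was 1.99-fold higher than in WT GNPs (0.996, SE 0.25, limma adjusted p = 0.0264). The difference between the genotypes, -0.76 with an interval of -1.31 to -0.21, did not pass over all probes (limma adjusted p = 0.205).

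A second *Sufu* probe close to the limit was higher by 0.92 in *Ptch+/-* MBs than in WT GNPs (limma adjusted p = 0.0325), and differed by -0.02 between *NdpKO;Ptch+/-* MBs and WT GNPs (limma adjusted p = 0.982). The brightest probe alone therefore carries the call for the *NdpKO;Ptch+/-* MBs. With the mean of all 4 probes that difference was 0.25 (limma adjusted p = 0.113), and it also failed without replicate 1 or 4 of *NdpKO;Ptch+/-* MB or replicate 1, 2 or 4 of WT GNP. The remaining pair of probes was under the limit on all arrays.

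*Gli2*, the main activator among the GLI factors (chromosome 1, 118834061 to 119054405), had log2 signals of 12.005, 11.10, 11.58 and 11.42 in *NdpKO;Ptch+/-* MBs. They were 12.27, 11.92, 12.43 and 12.18 in *Ptch+/-* MBs and 11.57, 11.51, 11.13 and 11.16 in WT GNPs. Every *Ptch+/-* MB exceeded every WT GNP sample, while replicate 1 of *NdpKO;Ptch+/-* MB reached into the *Ptch+/-* range. *Gli2* was 1.81-fold higher in *Ptch+/-* MBs than in WT GNPs (0.85, SE 0.19, limma adjusted p = 0.0137). The genotypes differed by -0.67 (interval -1.10 to -0.24, limma adjusted p = 0.154), and *NdpKO;Ptch+/-* MBs and WT GNPs by 0.18 (limma adjusted p = 0.624). The second *Gli2* probe went the other way in 2 of the 3 comparisons, without passing in any. It gave 0.34, -0.12 and 0.22 (limma adjusted p = 0.652, 0.808 and 0.657) for the genotypes, *Ptch+/-* MBs against WT GNPs and *NdpKO;Ptch+/-* MBs against WT GNPs. With the mean of its probes, the difference of *Gli2* between *Ptch+/-* MBs and WT GNPs was 0.37 (limma adjusted p = 0.240).

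*Gli3*, the GLI factor best known as a repressor (chromosome 13, 15463723 to 15730026), had the largest difference between group means among the 7 genes. Its log2 signals were 9.53, 8.82, 8.40 and 7.98 in *NdpKO;Ptch+/-* MBs, 4.19, 6.39, 4.17 and 6.37 in *Ptch+/-* MBs, and 9.77, 9.96, 9.38 and 9.58 in WT GNPs. The *Ptch+/-* MBs fell into a pair of samples at the floor and a pair near 6.4, and all 4 lay at least 1.59 below the lowest *NdpKO;Ptch+/-* MB. The *NdpKO;Ptch+/-* MBs spread over a wider range than the WT GNPs, which 1 of them overlapped. *Gli3* differed by a fitted 3.40 between *NdpKO;Ptch+/-* and *Ptch+/-* MBs (SE 0.57, interval 2.12 to 4.69, limma adjusted p = 0.0244) and by 3.24 when samples under the limit were set to it. *Ptch+/-* MBs fell by a fitted 4.40 against WT GNPs (SE 0.57, limma adjusted p = 0.000682), or by 4.24 with such samples at the limit.

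The mean of *Gli3* in *NdpKO;Ptch+/-* MBs was 8.68 ± 0.66 and in WT GNPs 9.67 ± 0.25 (SD, n = 4 each). That difference, -0.99 with an interval of -2.28 to 0.29, did not pass (limma adjusted p = 0.332; exact permutation test, 2-sided, p = 0.0571). The fit shares its estimate of spread over all groups, so every *Gli3* comparison has an SE of 0.57. Without the model, the pooled SD was 0.50 for *NdpKO;Ptch+/-* MBs and WT GNPs but 1.01 for the tumor genotypes. The call between the genotypes was not made when only those samples entered the fit (limma adjusted p = 0.157). It was also not made without replicate 1, 2 or 3 of *NdpKO;Ptch+/-* MB (0.0607, 0.0671 and 0.0512) or without replicate 1 or 3 of *Ptch+/-* MB (limma adjusted p = 0.0501 and 0.0525), although the fitted difference was 3.03 or more in these fits. The only other *Gli3* probe was under the limit on all arrays, so the result rests on 1 probe.

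*Hhip*, the decoy that binds hedgehog ligands and a target of the pathway (chromosome 8, 79965850 to 80058060), was under the limit in all WT GNPs, at 4.32, 4.36, 4.29 and 4.34. Its log2 signals were 6.75, 4.59, 5.92 and 4.65 in *NdpKO;Ptch+/-* MBs and 4.38, 4.42, 7.65 and 6.59 in *Ptch+/-* MBs. Each genotype thus held a pair of tumors with clear signal and a pair at or near the limit. The fitted difference between the genotypes was -0.28 (limma adjusted p = 0.941). Neither genotype passed against WT GNPs, with limma adjusted p = 0.257 for *Ptch+/-* MBs (mean at least 2.40-fold above the limit) and 0.408 for *NdpKO;Ptch+/-* MBs (at least 1.97-fold). All tumors had more signal than all WT GNPs, by as little as 0.02 for *Ptch+/-* MBs. The gene has a single probe.

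*Sfrp1*, the Wnt antagonist and Shh-MB marker (chromosome 8, 23411383 to 23449632), separated the tumors of both genotypes from WT GNPs. Its log2 signals were 13.52, 13.17, 13.53 and 13.51 in *NdpKO;Ptch+/-* MBs, 14.04, 13.78, 13.84 and 13.65 in *Ptch+/-* MBs, and 12.10, 12.02, 12.03 and 12.19 in WT GNPs. None of the groups overlapped, with *Ptch+/-* MBs highest and WT GNPs lowest. *Sfrp1* was 3.34-fold higher in *Ptch+/-* MBs than in WT GNPs (1.74, SE 0.10, limma adjusted p = 4.26e-06) and 2.55-fold higher in *NdpKO;Ptch+/-* MBs (1.35, SE 0.10, limma adjusted p = 2.82e-05). Between the genotypes the difference of -0.39 (interval -0.62 to -0.16) did not pass (limma adjusted p = 0.113).

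The second *Sfrp1* probe was likewise higher than in WT GNPs in both tumor genotypes, by 1.71 and 1.57 (limma adjusted p = 0.00147 and 0.00323). Between the genotypes it differed by -0.14 (limma adjusted p = 0.899). *Sfrp1* was the only one of the 7 genes called against WT GNPs by more than 1 probe above the limit in both genotypes.

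**Figure D2:**
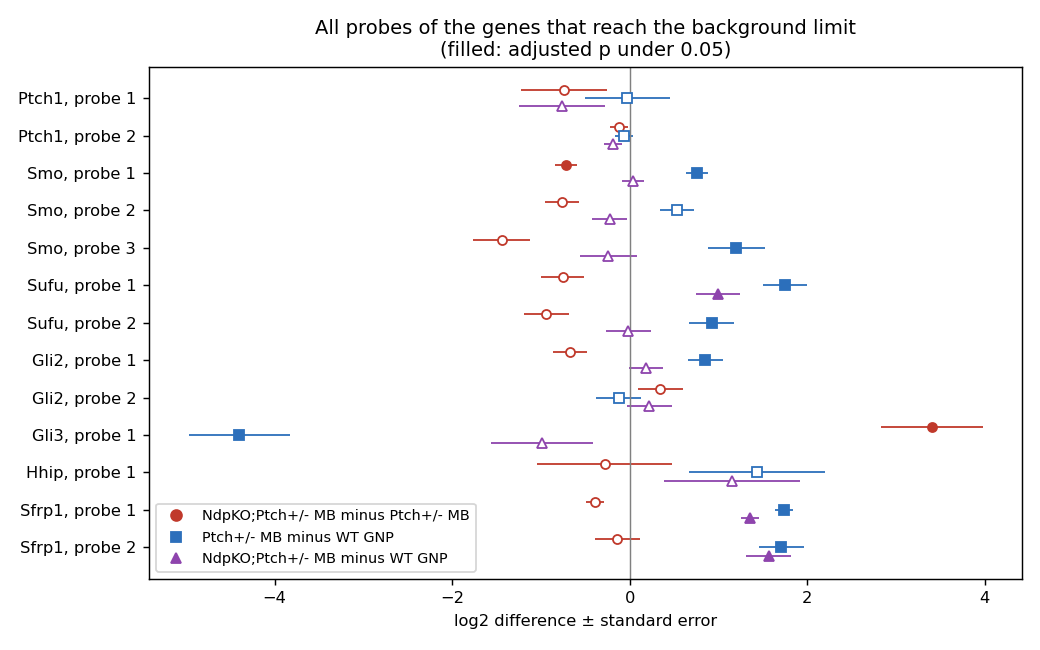
Log2 difference ± standard error (x axis) of each probe of the 7 genes that reached the background limit on some array (y axis), in the 3 comparisons. Filled marks have a limma adjusted p under 0.05. The 3 *Smo* probes lie on the same side for the tumor genotypes, while the *Gli2* probes lie on opposite sides (-0.67 and 0.34).

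Across the members, 6 of 7 had a lower mean in *NdpKO;Ptch+/-* than in *Ptch+/-* MBs, and 5 of 7 had their highest mean in *Ptch+/-* MBs. *Gli3* and *Ptch1* were the exceptions to the latter, with their highest means in WT GNPs. The order of the groups was *Ptch+/-* MB, *NdpKO;Ptch+/-* MB, WT GNP for *Smo*, *Sufu*, *Gli2*, *Hhip* and *Sfrp1*. After adjustment over all probes the 2 tumor groups differed for *Smo* alone among these 5, and *NdpKO;Ptch+/-* MBs and WT GNPs for *Sufu* and *Sfrp1*. The unadjusted 95% intervals between the tumor groups also lay below 0 for the brightest probes of *Sufu*, *Gli2* and *Sfrp1*, but none passed after adjustment. The tumor groups overlapped for *Gli2*, and its second probe went the other way (0.34). The second *Sfrp1* probe gave -0.14, with an interval of -0.71 to 0.43. The order was WT GNP, *NdpKO;Ptch+/-* MB, *Ptch+/-* MB for *Gli3*, where the latter pair passed, and WT GNP, *Ptch+/-* MB, *NdpKO;Ptch+/-* MB for *Ptch1*, where no neighbours did. The tumor genotypes did not overlap for 4 members (*Smo*, *Sufu*, *Gli3* and *Sfrp1*), against 15.1% of the genes above the limit. For *Ptch+/-* MBs and WT GNPs it was 6 members against 46.7%, and for *NdpKO;Ptch+/-* MBs and WT GNPs 3 (*Sufu*, *Hhip* and *Sfrp1*) against 39.8%. Samples of a group varied more in tumors than in WT GNPs for 7 of 7 members in *NdpKO;Ptch+/-* MBs and 5 of 7 in *Ptch+/-* MBs, by SD. Shares over all genes were not computed for these SD counts or for the counts of means above. Across all probes, Pearson's r between arrays was 0.993 to 0.996 in WT GNPs. It was 0.989 to 0.993 in *NdpKO;Ptch+/-* MBs and 0.984 to 0.991 in *Ptch+/-* MBs, so the larger spread in tumors is not particular to the members.

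Genes whose profile over the 12 arrays lay closest to a member's were sought for the 4 members whose group means spanned over 1 log2 unit. Likeness was the root mean square difference of centred log2 signals, so smaller is closer. The closest to *Sfrp1* were *Igdcc4* (0.165), *Zxda* (0.170) and *Akap6* (0.180). *Sufu* was followed by *Arhgef18* (0.198), *Rarres2* (0.262) and *Trf* (0.268). The matches were looser for *Gli3*, with *Chchd7* (0.882), *Ndn* (0.944) and *Lrrfip1* (0.950), and for *Hhip*, with *Adamts19* (0.614), *Arl11* (0.652) and *Ctdp1* (0.691).

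Beyond the members, 66 other genes of the pathway and its targets were measured. *Shh*, the ligand, its co-receptors *Boc*, *Cdon* and *Gas1*, the ciliary regulator *Kif7*, and *Gli1*, *Mycn* and *Atoh1*, known targets or markers of active signalling, all stayed under the limit on every array, as did 22 of the 66 in all. These probes give no levels, and the pathway's readout through *Gli1* could not be compared. Of the 44 that reached the limit on some array, 0 were higher and 3 lower in *NdpKO;Ptch+/-* than in *Ptch+/-* MBs by limma (3 and 9 at an unadjusted p under 0.05). Against WT GNPs, 17 were higher and 4 lower in *Ptch+/-* MBs, and 12 were higher and 2 lower in *NdpKO;Ptch+/-* MBs. Over the 8913 genes with a mean at or above the limit, 1.6% were higher and 2.59% lower in *NdpKO;Ptch+/-* than in *Ptch+/-* MBs. Against WT GNPs it was 19.7% and 18.5% for *Ptch+/-* MBs, and 15.5% and 13.3% for *NdpKO;Ptch+/-* MBs. The counts above and those by role that follow are to be read beside these shares, although the filters differ. Reaching the limit on some array admits genes through the groups where they are high, as for *Cdk6*, under it in all WT GNPs. The lists were also chosen with earlier results of these data known, so the counts are no test of the pathway. The median log2 difference of the other hedgehog genes was -0.12, 0.26 and 0.19 over the 42 whose mean was at or above the limit, beside 0.02, -0.01 and 0.04 over all such genes.

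The 3 that were lower in *NdpKO;Ptch+/-* MBs were *Foxm1*, *Ccnd2* and *Tulp3*. *Foxm1*, a transcription factor of dividing cells, had log2 signals of 9.35, 9.06, 9.30 and 9.13 in *NdpKO;Ptch+/-* MBs and 10.38, 10.19, 10.03 and 10.26 in *Ptch+/-* MBs, without overlap. It differed by -1.003 (SE 0.14, limma adjusted p = 0.0131), and its second probe by -0.84 (limma adjusted p = 0.0671). *Ccnd2*, a D-type cyclin of GNPs, had 13.43, 12.90, 13.32 and 13.21 against 13.99, 14.13, 14.07 and 14.08. It differed by -0.85 (SE 0.15, limma adjusted p = 0.0280), and its next brightest probes by -0.88 and -1.61 (limma adjusted p = 0.0133 and 0.00716). The brightest probe of *Ccnd2* passed in 10 of 21 alternative settings, failing in 7 of the 8 fits that left out a tumor (all but that without replicate 1 of *NdpKO;Ptch+/-* MB), and that of *Foxm1* passed in 20.

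*Tulp3*, which carries receptors into the cilium and restrains the pathway, had 4.40, 4.52, 4.49 and 4.42 in *NdpKO;Ptch+/-* MBs, with 3 of these under the limit, and 4.995, 5.62, 6.03 and 5.72 in *Ptch+/-* MBs. Its fitted difference was -1.14 (limma adjusted p = 0.0168). Its other probe was under the limit everywhere. *Ccnd1*, the D-type cyclin best known as a hedgehog target in GNPs, differed by -0.59 between the genotypes, which did not pass (limma adjusted p = 0.175).

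In *Ptch+/-* MBs against WT GNPs, *Ccnd1* was higher by 1.48 (limma adjusted p = 0.000414), *Ccnd2* by 0.79 (limma adjusted p = 0.00539) and *Foxm1* by 0.70 (limma adjusted p = 0.00896). *Cdk6*, a kinase partner of D-type cyclins, was at least 8.92-fold higher in *Ptch+/-* MBs and at least 5.33-fold higher in *NdpKO;Ptch+/-* MBs than in WT GNPs, where all 4 samples were under the limit. In *NdpKO;Ptch+/-* MBs *Ccnd1* was higher by 0.90 (limma adjusted p = 0.00934), while *Ccnd2* and *Foxm1* did not pass at -0.06 and -0.30 (limma adjusted p = 0.856 and 0.232). By role, 6 targets and Shh-MB markers of the 13 that reached the limit were higher and 1 lower in *Ptch+/-* MBs, and 3 were higher and 0 lower in *NdpKO;Ptch+/-* MBs.

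Genes of the primary cilium, where SMO acts, included 9 above the limit on some array. In *Ptch+/-* MBs 4 were higher than in WT GNPs, and in *NdpKO;Ptch+/-* MBs 5, with 0 lower. Between the genotypes 0 of them passed with limma (2 higher and 1 lower at an unadjusted p under 0.05). *Ift122* and *Ift140*, of the retrograde transport complex, were higher by 1.48 and 0.72 in *Ptch+/-* MBs and by 1.07 and 0.55 in *NdpKO;Ptch+/-* MBs. *Dync2h1*, the motor's heavy chain, was higher by 1.15 and 1.18. The others were *Ift172* in *Ptch+/-* MBs (0.64) and *Ift80* and *Rpgrip1l* in *NdpKO;Ptch+/-* MBs (1.24, and at least 1.88-fold), where *Ift172* and *Rpgrip1l* were named after their values were seen. Among them *Rpgrip1l* was nearest the threshold (limma adjusted p = 0.0480).

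Transducers and regulators of GLI proteins that reached the limit numbered 19. In *Ptch+/-* MBs against WT GNPs 7 were higher and 2 lower, and in *NdpKO;Ptch+/-* MBs 4 were higher and 2 lower. *Tulp3* was at least 2.13-fold higher and *Arrb2*, an arrestin that binds SMO, was higher by 0.41 (limma adjusted p = 0.00370) in *Ptch+/-* MBs. *Csnk1d*, a casein kinase, was lower in both, by -0.93 and -1.02 (limma adjusted p = 3.32e-05 and 2.59e-05). Further probes of *Csnk1d* ranged from -0.06 to -1.55 in *Ptch+/-* MBs, and 2 of those 4 passed. *Cul3*, a ubiquitin ligase scaffold that acts on GLI proteins, was lower by -0.28 and -0.42 (limma adjusted p = 0.0265 and 0.00452). The other 2 that were lower in *Ptch+/-* MBs were *Gpc3*, a glypican that competes for the ligand (-0.97, limma adjusted p = 0.00908), and the growth factor gene *Igf2* (-1.10, limma adjusted p = 0.0305), both named after their values were seen.

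**Figure D3:**
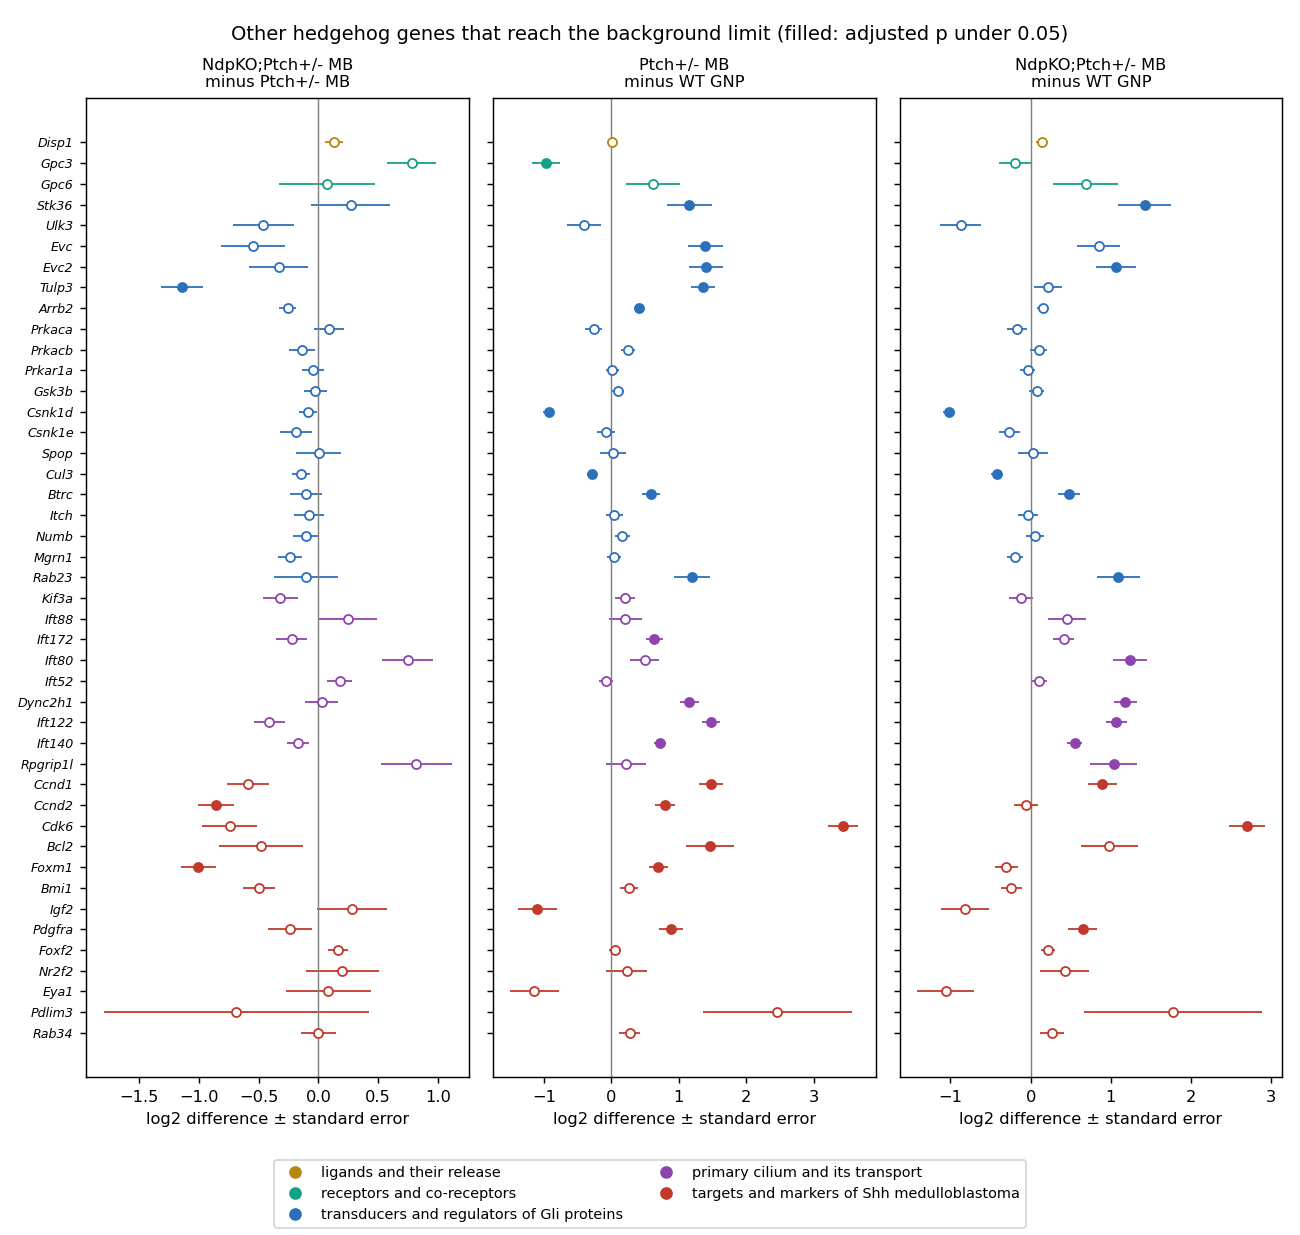
Log2 difference ± standard error (x axis, 1 panel a comparison, each with its own scale) of the 44 other hedgehog genes that reached the background limit on some array (y axis), coloured by role. Filled marks have a limma adjusted p under 0.05. In the left panel 3 are filled, all to the left of 0, and in the middle panel 21, of which 17 lie to the right.

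Signals of cell type markers differed between the groups, and no shares of cells were measured. Over genes with a mean at or above the limit, 19.7% were higher and 18.5% lower in *Ptch+/-* MBs than in WT GNPs. For *NdpKO;Ptch+/-* MBs it was 15.5% and 13.3%, and between the tumor genotypes 1.6% and 2.59%. The marker counts that follow are to be read beside these shares, and they include markers under the limit on every array. Microglia and macrophage markers, 5 of 8 measured, were higher than in WT GNPs in both tumor genotypes, and their summed linear signal was 2595 to 3817 in *NdpKO;Ptch+/-* MBs, 2929 to 6515 in *Ptch+/-* MBs and 496 to 649 in WT GNPs. The defining markers *Itgam* and *Ptprc* were at the floor in all groups, while *Aif1*, *C1qa* and *Tyrobp* were clear in tumors. The myelin genes *Mbp* and *Mag* were high in the WT GNPs, at means of 13.01 and 11.32 against 8.10 and 4.29 in *Ptch+/-* MBs, so the purified cells held RNA of oligodendrocyte genes. Oligodendrocyte markers, 8 measured, were 2 higher and 4 lower in either genotype, with sums of 9291 to 13481, 7143 to 13523 and 9861 to 20050.

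Granule lineage markers summed to 28588 to 33270, 26964 to 33168 and 36096 to 41848, so WT GNPs lay above both tumor groups. Of their 11 measured, 1 was higher and 3 lower in *Ptch+/-* MBs, and 0 higher and 2 lower in *NdpKO;Ptch+/-* MBs. Neuron markers summed to 19481 to 27586, 19564 to 25920 and 27600 to 30091, again highest in WT GNPs. The sums for proliferating cells, 15950 to 20168, 17364 to 20882 and 13969 to 18504, overlapped among all groups. Between the tumor genotypes 1 of 7 proliferation markers was called, *Mcm2*, a replication licensing factor, which was lower in *NdpKO;Ptch+/-* MBs (10.85 against 11.62, limma adjusted p = 0.00661). *Top2a*, *Cdk1*, *Pcna* and *Aurka*, not called, had higher means in *NdpKO;Ptch+/-* MBs (12.19, 11.245, 8.60 and 10.73) than in *Ptch+/-* MBs (12.11, 11.003, 8.22 and 10.65). *Mcm5* was level, at 12.88 in both. The median log2 difference was 0.08 over the 6 markers with a mean at or above the limit. Of the granule lineage markers 1 was called between the genotypes, *Mfap4*, which was higher (10.91 against 8.51, limma adjusted p = 0.00656) and had its highest mean in WT GNPs (12.84), the same order of groups as *Gli3*. *Pax6* and *Neurod1* had that order too, not called between the genotypes, while *Zic1*, *Zic2*, *Barhl1*, *Meis1* and *Cntn2* had other orders. The part of these markers in the differences of *Smo*, *Sufu*, *Gli2*, *Gli3* and *Sfrp1* from WT GNPs was not tested.

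Between the tumor genotypes, the marker sums of fibroblasts and meninges did not overlap, at 3438 to 5888 in *NdpKO;Ptch+/-* MBs and 6490 to 8407 in *Ptch+/-* MBs (0 of 9 markers called by limma, 2 lower at an unadjusted p under 0.05). That sum rests mainly on *Pdgfra* (means 11.995 and 12.23), which is also among the listed hedgehog targets, and *Dcn* (9.26 and 10.996). *Col1a1*, *Col1a2* and *Col3a1* were at the floor in both (4.17 to 4.22), and *Ptgds* lay the other way (6.16 and 5.49, not called). Endothelial sums were 4994 to 6717 and 3755 to 5044, with 2 of 12 markers higher and 1 lower in *NdpKO;Ptch+/-* MBs. Mural cell sums were 1556 to 3158 and 669 to 1692, with 1 of 9 markers higher. Astrocyte and Bergmann glia sums, 25033 to 37552 and 30125 to 49339, overlapped, with 1 of 12 markers higher. The part of these markers in the differences of *Smo*, *Gli3*, *Foxm1* and *Ccnd2* between the genotypes was not tested.

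**Figure D4:**
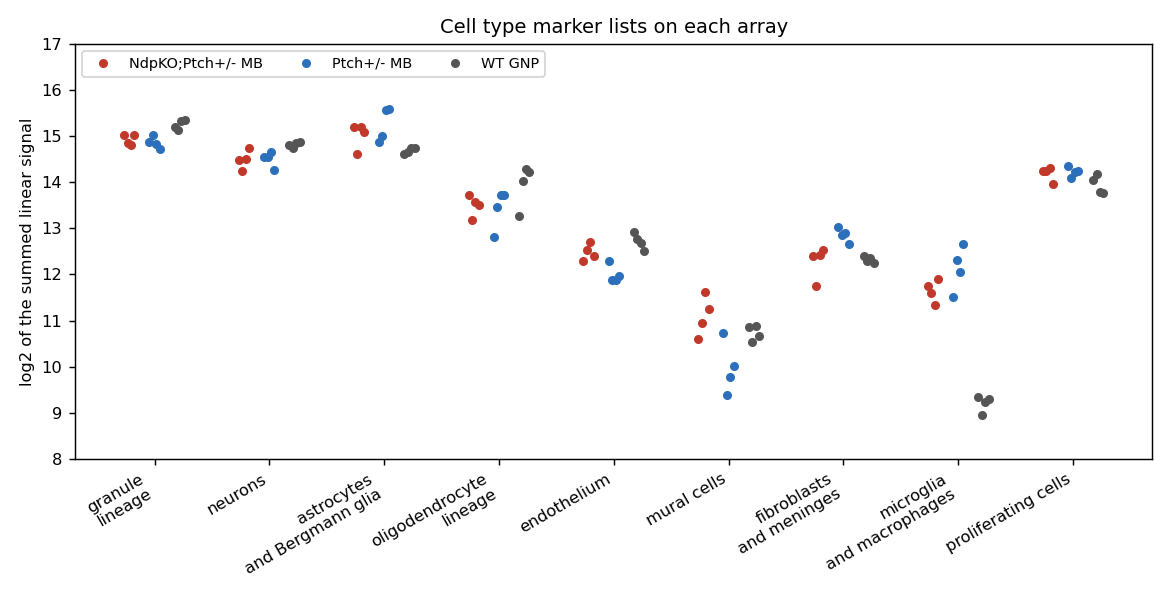
Log2 of the summed linear signal (y axis) of each cell type marker list (x axis) on the 12 arrays, by group. Each point is 1 array. Microglia and macrophage sums of WT GNPs (8.95 to 9.34) lie below those of all tumors (11.34 to 12.67), and fibroblast and meninges sums of *Ptch+/-* MBs lie above those of *NdpKO;Ptch+/-* MBs.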

How the data were processed

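Expression arrays (Illumina MouseWG-6 v2.0) of 4 *NdpKO;Ptch+/-* MBs, 4 *Ptch+/-* MBs and 4 WT GNP samples were used. The deposited values are log2 signals, which the authors obtained from BeadStudio output with neqc of limma (background correction by negative control probes, an offset, quantile normalization), and annotated with illuminaMousev2.db 1.26.0. The authors' limma version is not given in the sources used here. Quantile normalization gives all arrays the same distribution (median 4.15, values 4.09 to 16.04), so general shifts between arrays cannot be seen, and near the floor differences are compressed. The platform table gave 1 symbol to 34885 probes, several to 18 and none to 10378. The number of arrays limits the precision.

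Groups were compared in R 4.3.3 with limma 3.58.1 (lmFit and eBayes, group means over the 12 arrays, no covariates), with Benjamini-Hochberg adjustment across the 45281 probes and a threshold of 0.05. Where a gene stayed under 4.5 on all arrays of a group, an "at least" fold is the other group's mean over that limit. Over 2 groups of 4, the smallest p of the 2-sided exact permutation test is 0.0286. Positions and promoters are from RefSeq on GRCm38.p6.

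The members and lists were chosen with earlier results of these data known. Named genes were the 7 members with all their probes, a fixed set of hedgehog genes (*Shh*, *Gli1*, *Boc*, *Cdon*, *Gas1*, *Mycn*, *Ccnd1*, *Ccnd2*, *Kif7*, *Atoh1*), up to 8 others per comparison with the smallest p among those called without overlap, and 3 genes of like profile for members whose group means spanned over 1. Some listed genes are not reported here. Cell type markers illustrate their lists. The model was tested on simulated data. Alternatives were other normalization, dim probes left out, an intensity trend and robust prior, array weights, only the 2 groups compared, a replicate block, the mean of a gene's probes, a threshold of 0.01, the exact permutation test, and leaving out each array. The same settings for other hedgehog genes were added after seeing the data.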

Additional observations from a re-analysis of the deposited data

Results flagged for a closer look

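*Sfrp1* in replicate 2 of the *NdpKO;Ptch+/-* MBs had a log2 signal of 13.17, below 13.51 to 13.53 in the other 3. Its gap to the nearest was 0.942 of the group's range and above Dixon's 95% critical value for 4 samples. Chance marks about 1 in 20 groups, and 20 groups were examined in this way.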

How the results depend on the processing

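Of the member values under the alternatives, 420 kept their direction and their side of the threshold, 25 no longer passed, 6 newly passed and 11 turned in sign. Between the tumor genotypes 2 members were called, but 0 from the 2 groups alone or at a threshold of 0.01, 1 with a block on the replicate number, and 0 to 2 when 1 array was left out. Without replicate 2 of *NdpKO;Ptch+/-* MB, or replicate 1 or 3 of *Ptch+/-* MB, none passed. For *NdpKO;Ptch+/-* MBs against WT GNPs, 2 became 1 with the block, with the mean of probes and at 0.01, and 1 to 2 with 1 array left out. For *Ptch+/-* MBs against WT GNPs, 5 were called in each fit with 1 array left out, and 4 with the mean of probes and at 0.01. Of the 66 other hedgehog genes measured, those under the limit included, 3 differed between the genotypes, 1 from the 2 groups alone, 0 at 0.01 and 2 to 3 with 1 array left out, and 17 between *NdpKO;Ptch+/-* MBs and WT GNPs (14 that reached the limit on some array and 3 under it on all) became 9 at 0.01 and 9 to 17 with 1 array left out. Over all probes, 624 were called between the genotypes, 1217 with dim probes left out, 1051 with a trend and robust prior, 64 from the 2 groups alone, 223 with the block, 133 at 0.01 and 358 to 623 with 1 array left out. Against WT GNPs, 7814 for *Ptch+/-* MBs became 4514 with the mean of probes and 4187 at 0.01, and 5614 for *NdpKO;Ptch+/-* MBs became 3332 and 2893. The values that turned in sign were uncalled differences near 0: *Hhip* between the genotypes (-0.74 to 0.35 with 1 array left out; 0.01 without replicate 2 of *NdpKO;Ptch+/-* MB, 0.35 without replicate 3 of *Ptch+/-* MB), *Ptch1* in *Ptch+/-* MBs against WT GNPs (0.0010 with array weights, -0.36 to 0.28 with 1 array left out) and *Smo* in *NdpKO;Ptch+/-* MBs against WT GNPs (-0.11 with the mean of probes, -0.05 to 0.15 with 1 array left out, -0.048 without replicate 4 of WT GNP). The cause was not tested. Newly passing were *Sufu* between the genotypes with the mean of probes (limma adjusted p = 0.0453) and *Sfrp1* with a trend and robust prior (limma adjusted p = 0.0385), while the exact permutation test gave its smallest p, 0.0286, for both and for *Hhip* in each genotype against WT GNPs. *Smo* between the genotypes passed in 15 of 22 alternatives (p = 0.00926 to 0.113, exact test included) and *Gli3* in 14 (p = 0.00388 to 0.157, exact test included). The exact test is not adjusted over probes and gives 0.0286 whenever 2 groups of 4 do not overlap. Its passes are therefore not on a par with those of limma. With that replicate block, *Gli3* between the genotypes had an adjusted p of 0.0794 and *Sufu* in *NdpKO;Ptch+/-* MBs against WT GNPs 0.0807 (limma). Samples of the same number correlated by -0.18 to 0.11 in their deviations, so the numbers do not pair them. Members at or near the background limit (*Hhip*, *Gli3* in *Ptch+/-* MBs) have only rough differences.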
